A study of Mus musculus with 16 samples.

Results

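Glucose uptake and glycolysis genes and the genes of the cellular response to low oxygen were followed across the 16 RNA libraries of the series, as 36 gene symbols taken by name from the deposited gene tables. They matched 37 of the 54532 table rows, because Aldoa has a second, barely expressed row, and all 37 rows were among the 15469 genes that passed the filter on low counts. The cells were macrophages grown from the tibial marrow of wild-type mice of the strain C57BL/6, aged 2 to 3 months, in 15% serum with the macrophage growth factor CSF-1, at 12 ng/ml for 24 h and then 120 ng/ml for 48 h. After a single passage they grew to confluence on uncoated dishes or on dishes with a coat of fibronectin (10 µg/ml), an extracellular matrix protein to which integrins attach. They then received for 24 h either an antibody that neutralizes the integrin αV subunit (anti-ITGAV) or an IgG antibody, each at 10 µg/ml. The 4 groups of 4 libraries were fibronectin with anti-ITGAV, fibronectin with IgG, uncoated with anti-ITGAV, and uncoated with IgG. Whether the replicates came from separate mice or cultures is not given in the sources used here, so the p-values measure the spread between these libraries, which may be technical.

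Glycolysis splits glucose into pyruvate: a carrier brings glucose in, a hexokinase traps it as glucose 6-phosphate, phosphofructokinase commits it, and the triose enzymes yield ATP and pyruvate, which lactate dehydrogenase turns into lactate. When oxygen is low, prolyl hydroxylases stop marking the hypoxia-inducible factor Hif1a for destruction, and the factor switches on most genes of glycolysis along with mitophagy, redox and collagen-modifying genes. Macrophages rely on this program when they are activated, and Hif1a is itself mostly controlled at the protein level, which RNA does not show.

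The libraries held 27995035 to 43413650 counts, and a gene without a count could still be present at up to 0.0691 to 0.107 CPM, depending on the library (3 counts of its total, counting error only). CPM are counts relative to the library's scaled total. Macrophage markers were high (10 of 10 detected, median 340.1 CPM). Summed neutrophil markers (10 genes) reached 212.1 to 364.5 CPM on fibronectin with anti-ITGAV, 329 to 422 CPM on fibronectin with IgG, 310.3 to 365.7 CPM on uncoated dishes with anti-ITGAV and 428.4 to 453.5 CPM on uncoated dishes with IgG. Red-cell markers were near 0, with Hba-a2 at 0 in every library. 1 library stood apart, replicate 3 of fibronectin with anti-ITGAV: its mitochondrial transcripts made up 3.67% of counts, against 1.3% to 1.6% elsewhere. Its genes also fell with GC content (rank correlation of a gene's deviation with transcript GC content of -0.7, against -0.3 to 0.55 in the other 15 libraries). In bulk RNA, fewer cells of a type and less RNA per cell cannot be told apart.

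Several glycolytic enzymes were among the most abundant transcripts of these cells, while others ranked far lower. On the deposited FPKM scale, which is per gene length, Pkm (pyruvate kinase) averaged 617 FPKM over the 16 libraries and ranked 49 of 15469. Aldoa (aldolase) averaged 449 FPKM, Pgk1 (phosphoglycerate kinase) 435, Ldha (lactate dehydrogenase A) 266, Eno1 (enolase) 251, Pgam1 (phosphoglycerate mutase) 238 and Tpi1 (triose-phosphate isomerase) 156 FPKM. The phosphofructokinase forms Pfkl, Pfkp and Pfkm averaged only 15.5, 7.24 and 6.11 FPKM (ranks 3161, 5588 and 6145 of 15469). Slc2a1, the main glucose carrier of macrophages, averaged 14.6 FPKM, and Hk3, the most abundant of the hexokinases that trap glucose, 139 FPKM. Hif1a averaged 14.8 FPKM, and its degradation-marking hydroxylases Egln1 and Egln3 13.9 and 0.701 FPKM. Among the hypoxia-inducible targets the mitophagy receptor gene Bnip3l was the highest, at 27.3 FPKM, and Adm, which encodes the vasodilator peptide adrenomedullin, was the lowest, at 0.339 FPKM. Gapdh averaged only 2.79 FPKM (mean count 399.4), far below the enzymes before and after it in the pathway. Gapdh has many processed copies in the mouse genome and how multiply matching reads were counted is not stated, so its level and its changes are uncertain. Over the 37 rows the highest library exceeded the lowest by a median of 1.85-fold in CPM, and by 1.62-fold without the library that stood apart.

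**Figure D1:**
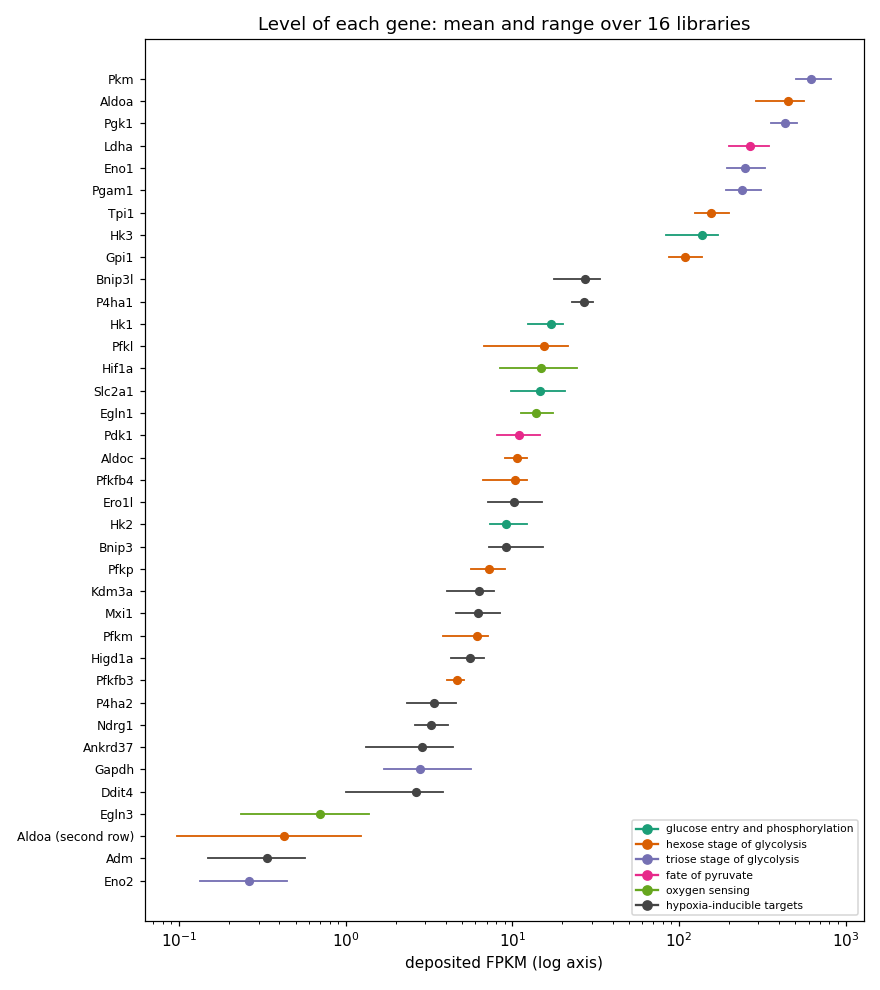
Mean (point) and lowest to highest library (line) of the deposited FPKM of each gene over 16 libraries, on a log axis, coloured by role. Pkm, Aldoa and Pgk1 lie above 400 FPKM, while Eno2, Adm, the second Aldoa row and Egln3 lie below 1.

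4 steps had several enzyme forms among the 36 symbols. Hk3, the hexokinase form typical of white blood cells, made up 84.0% ± 1.23 of the summed hexokinase FPKM (SD, n = 16), against 10.4% ± 0.534 for Hk1, the form of most tissues, and 5.62% ± 0.889 for Hk2, the inducible form. Pfkl held 53.1% ± 4.91 of the summed phosphofructokinase FPKM, Pfkp 25.4% ± 4.18 and Pfkm 21.5% ± 3.57. Aldoa held 97.7% ± 0.232 over Aldoc, and Eno1 99.9% ± 0.0398 over Eno2.

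The shares of Hk2 and Pfkm differed with the coating in opposite directions. Hk2's share was 5.31%, 6.02%, 7.85% and 6.51% on fibronectin with anti-ITGAV and 6.20%, 5.60%, 5.80% and 6.93% on fibronectin with IgG, against 4.56%, 4.87%, 4.87% and 4.94% on uncoated dishes with anti-ITGAV and 5.03%, 5.27%, 5.04% and 5.18% on uncoated dishes with IgG. All 8 fibronectin libraries were above all 8 uncoated libraries. Pfkm's share was 17.6%, 20.1%, 21.7% and 17.2% on fibronectin with anti-ITGAV and 18.4%, 17.3%, 17.4% and 17.7% on fibronectin with IgG, against 23.5%, 24.5%, 23.1% and 24.6% on uncoated dishes with anti-ITGAV and 28.3%, 25.7%, 23.3% and 23.8% on uncoated dishes with IgG. Here all 8 fibronectin libraries were below all 8 uncoated libraries. The shares carry no test of their own. In the library that stood apart those of Pfkl and Pfkp, 38.1% and 40.2%, lay outside the range of the other 15. So did its shares of Hk1 (11.9%), Hk2 (7.85%), Hk3 (80.2%), Aldoa (96.9%) and Aldoc (3.07%). As shares of counts, which are not per length, Pfkl held 46.4% and Pfkp 44.2% of the family.

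**Figure D2:**
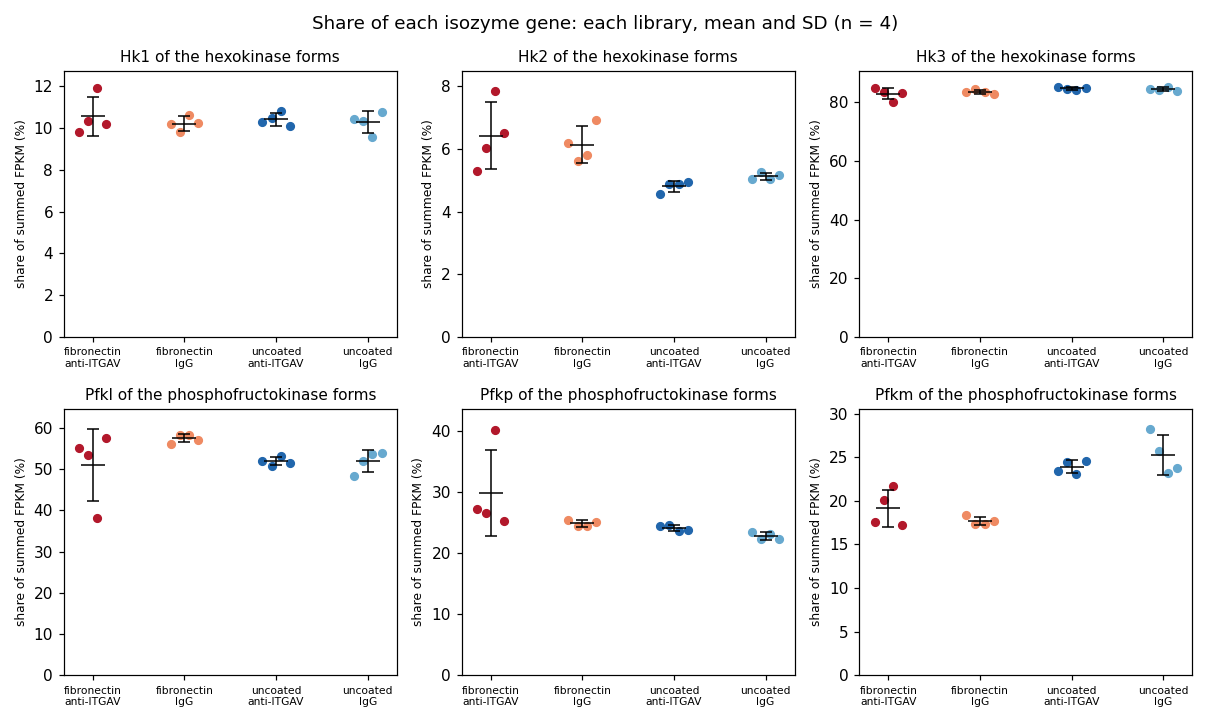
Share of each hexokinase and phosphofructokinase gene in the summed FPKM of its family, in percent from 0, for each of 16 libraries, with the mean and SD of each group of 4. Hk2 is higher and Pfkm lower in the 8 fibronectin libraries than in the 8 uncoated ones, and 1 library of fibronectin with anti-ITGAV has 40.2% Pfkp.

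To see which of these genes changed on fibronectin, coated and uncoated dishes were compared under each antibody, and as an average over both antibodies. A gene is called changed at an adjusted p under 0.05 over all genes tested, by edgeR's quasi-likelihood test. Under IgG, 8 of the 37 rows rose on fibronectin and 0 fell, where 3.79% of all genes tested were called, 2.37% higher and 1.42% lower. They were the carrier Slc2a1, the kinases Hk2 and Pfkp, Ldha, the hydroxylases Egln1 and Egln3, Ankrd37 and P4ha1. The median log2 change of the 37 rows was 0.27, against 0.002 over all genes tested. In 16 rows all 4 fibronectin libraries exceeded all 4 uncoated libraries (7.89% of all genes tested), and in 2, Pfkfb4 and Mxi1, all 4 were lower (5.26%). Under anti-ITGAV, 2 rows rose, Slc2a1 and Ankrd37, and 0 fell, where 5.66% of all genes tested were called, 2.84% higher and 2.83% lower. Upper-quartile scaling called 1 row higher and 1 lower there, where it called 336 higher and 453 lower over all genes. DESeq2 called 5 rows higher and 3 lower, where it called 800 higher and 700 lower over all genes. The fit without fibronectin anti-ITGAV replicate 2 called 1 row higher and 3 lower. Fits that left out 1 library called 428 to 1037 genes in all. The median log2 change was 0.11, against 0.008 over all genes, and became 0.06 without fibronectin anti-ITGAV replicate 4 and 0.07 without uncoated anti-ITGAV replicate 4. There 6 rows had all fibronectin libraries above (6.55% of all genes) and 3 all below (7.53%). The comparisons under IgG and under anti-ITGAV use different libraries and share only the fit's estimate of the spread.

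Averaged over both antibodies, 13 rows rose and 2 fell on fibronectin, where 11.8% of all genes tested were called, 6.58% higher and 5.26% lower. By role, the risers were 2 of 4 genes of glucose entry and phosphorylation, 1 of 10 rows of the hexose stage, 2 of 6 of the triose stage, 2 of 2 for the fate of pyruvate, 2 of 3 of oxygen sensing and 4 of 12 hypoxia-inducible targets. The 2 that fell were Pfkfb4 and Ddit4. In 3 genes, Ldha, Ankrd37 and P4ha1, all 8 fibronectin libraries exceeded all 8 uncoated ones (2.01% of all genes tested), and in Pfkfb4 all 8 were lower (1.81%). Without the library that stood apart, 16 rows were called under IgG (15 higher, 1 lower), 7 under anti-ITGAV (6 higher, 1 lower) and 22 on average (19 higher, 3 lower). Calls over all genes grew as well, from 586 to 1325 under IgG and from 1831 to 2468 on average. Under anti-ITGAV, where 876 genes were called, leaving out 1 library gave 428 to 1037. The 1037 came without fibronectin IgG replicate 2, so the fit without the library that stood apart called no more than that. Beside these calls, summed mast cell and basophil markers (6 genes) were 8.95 to 12.7 CPM on fibronectin with anti-ITGAV and 14.4 to 17.7 CPM on fibronectin with IgG, against 19.2 to 25.1 CPM on uncoated dishes with anti-ITGAV and 25.6 to 32.5 CPM on uncoated dishes with IgG. Of these 6, 2 fell on average and 0 rose. Summed fibroblast markers (6 genes, Lum at 0 in every library) were 4.90 to 8.05 and 7.32 to 8.38 CPM on fibronectin with anti-ITGAV and with IgG, against 10.4 to 12.4 and 12.0 to 14.9 CPM on uncoated dishes with anti-ITGAV and with IgG, and 3 of the 3 tested fell on average. Of the 10 neutrophil markers, 6 fell on average. Summed B and T lymphocyte markers (6 genes) were 2.43 to 3.57 and 2.17 to 2.89 CPM on fibronectin with anti-ITGAV and with IgG, against 4.28 to 5.91 and 3.42 to 5.39 CPM on uncoated dishes with anti-ITGAV and with IgG, and 2 of the 3 tested fell on average. Of the 10 macrophage markers, 2 fell on average and 0 rose. The part of these cells in the calls was not tested.

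**Figure D3:**
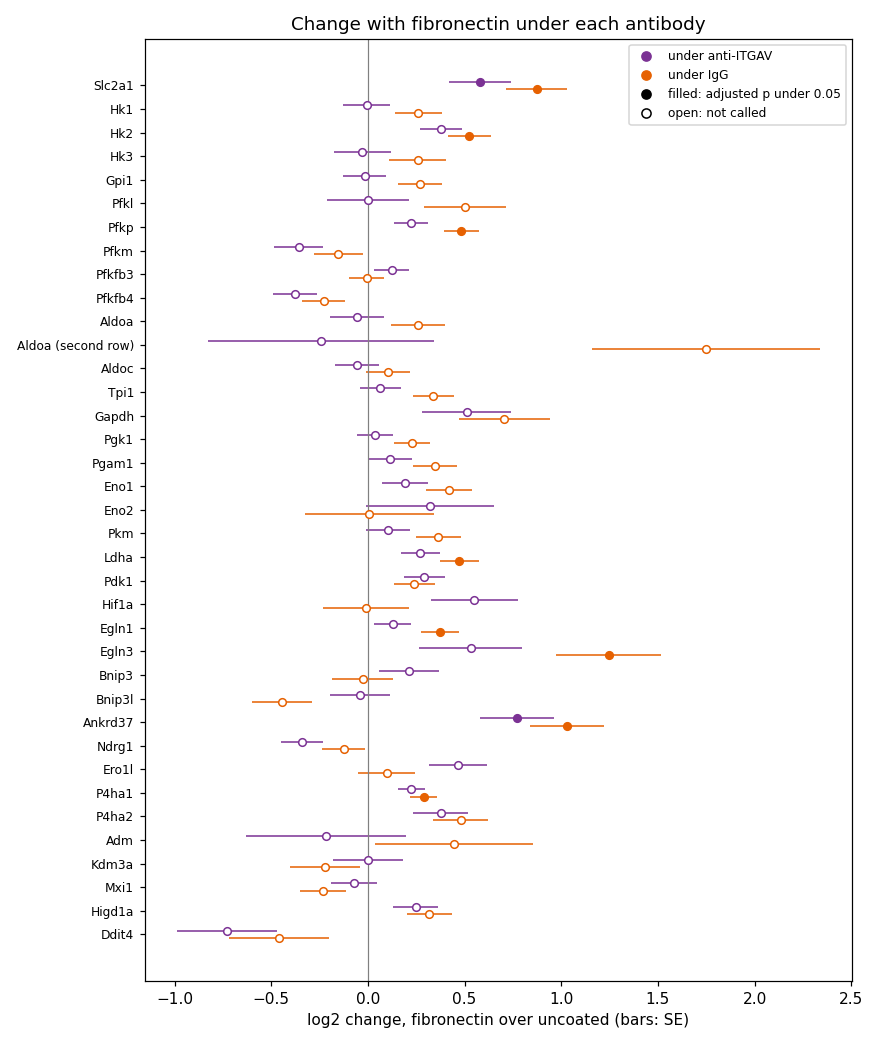
Log2 change on fibronectin over uncoated dishes (points) with its SE (lines) for each of the 37 rows, under anti-ITGAV (purple) and under IgG (orange); filled points have an adjusted p under 0.05. Most orange points lie right of 0, and only Slc2a1 and Ankrd37 are filled under both antibodies.

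The glucose carrier gene rose under both antibodies. Slc2a1 (ENSMUSG00000028645, chromosome 4, 119108711 to 119137983, plus strand, GRCm38) read 61.2, 70.6, 68.3 and 72.2 CPM on fibronectin with IgG, against 36.0, 36.9, 35.5 and 40.3 CPM on uncoated dishes with IgG. Every fibronectin library was above every uncoated one, a 1.83-fold difference (log2 change 0.87 ± 0.16, SE, adjusted p = 0.00478). With anti-ITGAV it read 64.5, 71.5, 38.4 and 73.0 CPM on fibronectin, against 50.3, 38.5, 41.8 and 34.9 CPM on uncoated dishes. Here 3 of the 4 fibronectin libraries were high and replicate 3, the library that stood apart, lay within the uncoated range (log2 change 0.58 ± 0.16, SE, adjusted p = 0.0408). Leaving out that library gave a log2 change of 0.75 for Slc2a1 under anti-ITGAV, but leaving out any 1 of 10 other libraries ended this call (adjusted p up to 0.123).

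Hk2, the inducible hexokinase, read 64.3, 68.9, 66.5 and 73.7 CPM on fibronectin with IgG, against 45.1, 47.1, 45.8 and 51.9 CPM on uncoated dishes with IgG. The groups did not overlap (log2 change 0.53 ± 0.11, SE, adjusted p = 0.011). With anti-ITGAV it read 56.0, 65.4, 48.9 and 73.7 CPM on fibronectin, against 48.6, 45.4, 49.3 and 44.2 CPM on uncoated dishes, where replicate 3 on fibronectin fell within the uncoated range and the difference missed the threshold (log2 change 0.38 ± 0.11, SE, adjusted p = 0.0502). Hk3, by far the most abundant hexokinase transcript, averaged 501 ± 129 and 578 ± 49.7 CPM on fibronectin with anti-ITGAV and with IgG, against 511 ± 40.6 and 483 ± 25.0 CPM on uncoated dishes with anti-ITGAV and with IgG (SD, n = 4 each), and was called in neither comparison. Without uncoated IgG replicate 1 or 3, Hk2's adjusted p under IgG was 0.0529 and 0.0524.

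In the hexose stage Pfkp, a phosphofructokinase form, rose under IgG. It read 108, 123, 109 and 112 CPM on fibronectin with IgG, against 79.1, 76.1, 78.5 and 90.1 CPM on uncoated dishes with IgG, with no overlap (log2 change 0.48 ± 0.09, SE, adjusted p = 0.00478). With anti-ITGAV it read 110.1, 113, 96.3 and 111 CPM on fibronectin, against 102, 88.9, 94.6 and 83.4 CPM on uncoated dishes, and the groups overlapped (log2 change 0.22 ± 0.09, SE, adjusted p = 0.154). Pfkp overlaps Pitrm1 on the other strand by 748 bases, and the strand setting of the counting is not given. Pitrm1 differed by a log2 of 0.02 under IgG (adjusted p = 0.95). Pfkm, the muscle form, was called in no comparison and averaged 17.8 ± 3.54 and 20.1 ± 1.15 CPM on fibronectin with anti-ITGAV and with IgG, against 22.7 ± 1.26 and 22.3 ± 2.05 CPM on uncoated dishes with anti-ITGAV and with IgG (SD, n = 4 each).

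Of the 2 regulators of phosphofructokinase among the symbols, Pfkfb4 fell and Pfkfb3 was not called; the difference between them was not tested. Pfkfb4, a kinase and phosphatase that sets the level of the activator of phosphofructokinase, read 49.2, 51.6, 32.8 and 46.6 CPM and 43.3, 48.9, 49.3 and 46.3 CPM on fibronectin with anti-ITGAV and with IgG, against 60.6, 60.3, 57.5 and 55.6 CPM and 53.2, 56.7, 54.4 and 56.0 CPM on uncoated dishes with anti-ITGAV and with IgG. All 8 fibronectin libraries were lower, and Pfkfb4 fell on average (log2 change -0.30 ± 0.08, SE, adjusted p = 0.0175). Pfkfb3, the form with the stronger kinase activity, averaged 37.3 ± 2.13 and 35.2 ± 3.42 CPM on fibronectin with anti-ITGAV and with IgG, against 34.3 ± 1.87 and 35.4 ± 2.15 CPM on uncoated dishes with anti-ITGAV and with IgG (SD, n = 4 each). Its averaged difference was not called (log2 change 0.06 ± 0.06, SE, adjusted p = 0.643). Aldoa, the most abundant transcript of the hexose stage, was not called either (log2 change 0.10 ± 0.10, SE, adjusted p = 0.594), and its second row, at a mean of 0.35 CPM, read 0.305 to 1.01 CPM on fibronectin with IgG, against 0.0789 to 0.298 CPM on uncoated dishes with IgG (adjusted p = 0.124). Hk1, the isomerase genes Gpi1 and Tpi1, Pfkl and Aldoc were called in no comparison, with averaged log2 changes from 0.02 (Aldoc) to 0.25 (Pfkl).

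None of the 6 triose rows was called under IgG, where their log2 changes ran from 0.01 (Eno2) to 0.71 (Gapdh), with a median of 0.36. Averaged over both antibodies, Eno1 and Gapdh rose. Eno1 averaged 1441 ± 191 and 1587 ± 176 CPM on fibronectin with anti-ITGAV and with IgG, against 1262 ± 144 and 1188 ± 149 CPM on uncoated dishes with anti-ITGAV and with IgG (SD, n = 4 each; log2 change 0.30 ± 0.08, SE, adjusted p = 0.0247). Leaving out any 1 of 8 libraries ended the call of Eno1. Gapdh read 10.9, 14.1, 12.1 and 23.6 CPM and 10.2, 16.4, 11.4 and 13.9 CPM on fibronectin with anti-ITGAV and with IgG, against 14.1, 10.1, 11.3 and 7.05 CPM and 7.66, 8.25, 8.44 and 7.50 CPM on uncoated dishes with anti-ITGAV and with IgG (log2 change 0.61 ± 0.17, SE, adjusted p = 0.0217). Its highest library, replicate 4 of fibronectin with anti-ITGAV, was well above the rest. Pkm read 3250, 4134, 3679 and 3305 CPM on fibronectin with IgG, against 2545, 2724, 2723 and 3171 CPM on uncoated dishes with IgG, a gap without overlap that missed the threshold (log2 change 0.36 ± 0.12, SE, adjusted p = 0.0942). With anti-ITGAV, Pkm averaged 3186 ± 442 CPM on fibronectin, against 2963 ± 304 CPM on uncoated dishes (SD, n = 4 each), and the groups overlapped. Pkm shares 3887 bases on the same strand with AC160637.1, a row of 42.9 CPM that rose on fibronectin under IgG (log2 change 0.74 ± 0.14, SE, adjusted p = 0.00667). Pgk1, Pgam1, Pkm and Eno2 were called in no comparison, with averaged log2 changes of 0.13, 0.23, 0.23 and 0.16.

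Both genes at the fate of pyruvate rose on average. Ldha, whose enzyme makes lactate, read 946, 1166, 1078 and 960.1 CPM on fibronectin with IgG, against 668, 712, 755 and 855 CPM on uncoated dishes with IgG (log2 change 0.47 ± 0.10, SE, adjusted p = 0.0132). With anti-ITGAV it read 934, 995, 960.1 and 1013 CPM on fibronectin, against 924, 782, 838 and 692 CPM on uncoated dishes (log2 change 0.27 ± 0.10, SE, adjusted p = 0.133). No uncoated library reached any fibronectin library, and the averaged log2 change was 0.37 ± 0.07 (SE, adjusted p = 0.00222). The call under IgG was lost without uncoated IgG replicate 1, 2 or 3 or fibronectin IgG replicate 3 (adjusted p 0.0519 to 0.0715). Pdk1, whose kinase keeps pyruvate out of the mitochondrial acetyl-CoA step, averaged 98.8 ± 11.5 and 91.2 ± 6.32 CPM on fibronectin with anti-ITGAV and with IgG, against 80.8 ± 1.87 and 77.2 ± 11.2 CPM on uncoated dishes with anti-ITGAV and with IgG (SD, n = 4 each; log2 change 0.27 ± 0.08, SE, adjusted p = 0.0272). Its call was lost without any 1 of 7 libraries.

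**Figure D4:**
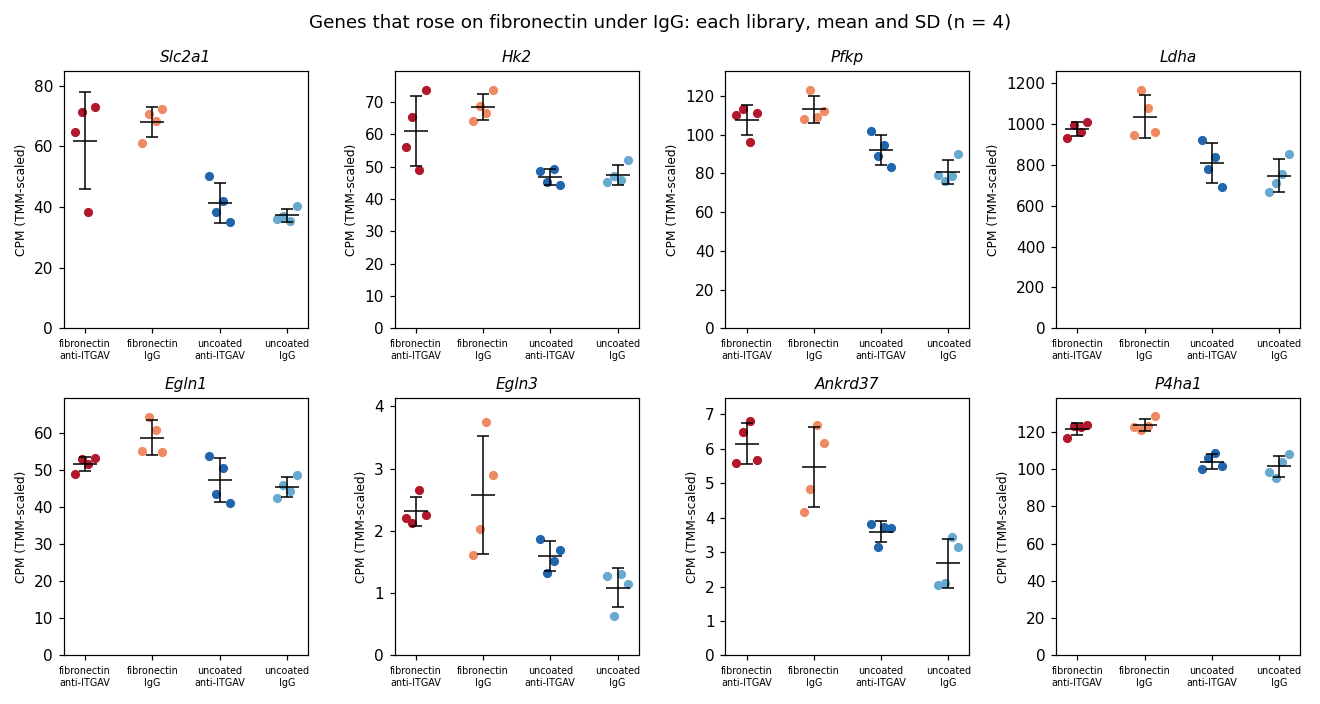
CPM of each library (points, axes from 0) with the mean and SD of each group of 4, for the 8 genes that rose on fibronectin under IgG. In all 8 panels the fibronectin IgG libraries lie above the uncoated IgG libraries, and in Slc2a1 1 library of fibronectin with anti-ITGAV sits at 38.4 CPM, within the uncoated range.

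In oxygen sensing, the hydroxylase genes rose under IgG and on average, and Hif1a did not pass the test. Egln3 read 1.62, 2.03, 3.75 and 2.90 CPM on fibronectin with IgG, against 1.28, 0.631, 1.31 and 1.15 CPM on uncoated dishes with IgG. The 4 fibronectin libraries spread widely but all exceeded the uncoated ones, with a 2.37-fold difference (log2 change 1.25 ± 0.27, SE, adjusted p = 0.0151). With anti-ITGAV Egln3 read 2.21, 2.13, 2.66 and 2.25 CPM on fibronectin, against 1.88, 1.32, 1.51 and 1.70 CPM on uncoated dishes, again without overlap but not called (log2 change 0.53 ± 0.27, SE, adjusted p = 0.25). The call under IgG was lost without uncoated IgG replicate 2 or fibronectin IgG replicate 3 or 4 (adjusted p 0.0534 to 0.0729). Egln1, the main oxygen sensor of most cells, averaged 58.6 ± 4.62 CPM on fibronectin with IgG, against 45.3 ± 2.70 CPM on uncoated dishes with IgG (SD, n = 4 each; log2 change 0.37 ± 0.10, SE, adjusted p = 0.0373). Its call under IgG was lost in 11 of the 16 fits that left out 1 library. With anti-ITGAV Egln1 averaged 51.6 ± 1.96 CPM on fibronectin, against 47.2 ± 5.94 CPM on uncoated dishes (SD, n = 4 each). There the groups overlapped and Egln1 was not called (log2 change 0.13). Its averaged log2 change was 0.25, a call lost in 5 of the 16 fits that left out 1 library. Hif1a read 108, 81.0, 144 and 92.5 CPM on fibronectin with anti-ITGAV, against 51.0, 78.2, 64.2 and 97.4 CPM on uncoated dishes with anti-ITGAV (log2 change 0.55 ± 0.22, SE, adjusted p = 0.164). With IgG it read 102, 65.0, 76.0 and 106 CPM on fibronectin, against 90.0, 96.7, 104 and 60.2 CPM on uncoated dishes (log2 change -0.01 ± 0.22, SE, adjusted p = 0.994). Its libraries overlapped in both comparisons, and its highest value was in the library that stood apart.

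Among the 12 hypoxia-inducible targets the response was mixed: 4 rose on average, 1 fell and 7 were not called. Ankrd37, a small ankyrin-repeat gene that hypoxia induces, read 4.18, 4.83, 6.69 and 6.16 CPM on fibronectin with IgG, against 2.05, 2.10, 3.43 and 3.14 CPM on uncoated dishes with IgG (log2 change 1.03 ± 0.19, SE, adjusted p = 0.00534). With anti-ITGAV it read 5.59, 6.50, 6.81 and 5.69 CPM on fibronectin, against 3.81, 3.14, 3.74 and 3.70 CPM on uncoated dishes (log2 change 0.77 ± 0.19, SE, adjusted p = 0.0227). All 8 fibronectin libraries were above all 8 uncoated ones. The call under anti-ITGAV was lost without uncoated anti-ITGAV replicate 2 or 3 (adjusted p 0.0843 and 0.0578). Ankrd37 overlaps 2 genes on the other strand, Lrp2bp by 6405 bases and Ufsp2 by 57 bases. Lrp2bp, at 0.317 CPM, differed by a log2 of -0.51 under IgG (adjusted p = 0.86). Ufsp2, at 63.0 CPM, differed by a log2 of -0.04 under IgG (adjusted p = 0.938).

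P4ha1 and P4ha2 encode catalytic subunits of collagen prolyl 4-hydroxylase. P4ha1 read 122, 121, 123 and 129 CPM on fibronectin with IgG, against 98.6, 94.95, 104 and 108 CPM on uncoated dishes with IgG (log2 change 0.29 ± 0.07, SE, adjusted p = 0.0284). With anti-ITGAV P4ha1 read 116, 123, 123 and 124 CPM on fibronectin, against 99.96, 106, 109 and 102 CPM on uncoated dishes (log2 change 0.23 ± 0.07, SE, adjusted p = 0.0707). The step was small and regular, with the 8 fibronectin libraries at 116 CPM or above and the 8 uncoated at 109 CPM or below. P4ha2 averaged 22.7 ± 4.46 and 26.4 ± 2.03 CPM on fibronectin with anti-ITGAV and with IgG, against 17.5 ± 2.11 and 18.9 ± 2.69 CPM on uncoated dishes with anti-ITGAV and with IgG (SD, n = 4 each), and rose on average (log2 change 0.43 ± 0.10, SE, adjusted p = 0.00846). The call of P4ha1 under IgG was lost in 9 of the 16 fits that left out 1 library, and its averaged call in none of them.

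Higd1a, which encodes a mitochondrial protein of hypoxic survival, rose on average (log2 change 0.28 ± 0.08, SE, adjusted p = 0.032). It averaged 18.4 ± 2.17 and 19.3 ± 1.33 CPM on fibronectin with anti-ITGAV and with IgG, against 15.5 ± 1.60 and 15.5 ± 1.70 CPM on uncoated dishes with anti-ITGAV and with IgG (SD, n = 4 each). Ddit4, whose product restrains the growth kinase mTORC1, read 4.62, 4.83, 1.78 and 2.64 CPM and 4.35, 4.26, 4.80 and 2.90 CPM on fibronectin with anti-ITGAV and with IgG, against 4.77, 5.56, 6.79 and 5.92 CPM and 5.13, 4.76, 5.65 and 6.89 CPM on uncoated dishes with anti-ITGAV and with IgG. It fell on average (log2 change -0.60 ± 0.18, SE, adjusted p = 0.0408), although the groups overlapped. The call of Higd1a was lost in 11 and that of Ddit4 in 10 of the 16 fits that left out 1 library. The mitophagy receptor gene Bnip3l was not called: it averaged 107 ± 16.8 and 88.9 ± 15.96 CPM on fibronectin with anti-ITGAV and with IgG, against 110.1 ± 20.9 and 121 ± 13.6 CPM on uncoated dishes with anti-ITGAV and with IgG (SD, n = 4 each; log2 change -0.24 ± 0.11, SE, adjusted p = 0.178). Bnip3, Ndrg1, Ero1l, Adm, Kdm3a and Mxi1 were not called in any comparison. Their averaged log2 changes ran from -0.23 (Ndrg1) to 0.28 (Ero1l).

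**Figure D5:**
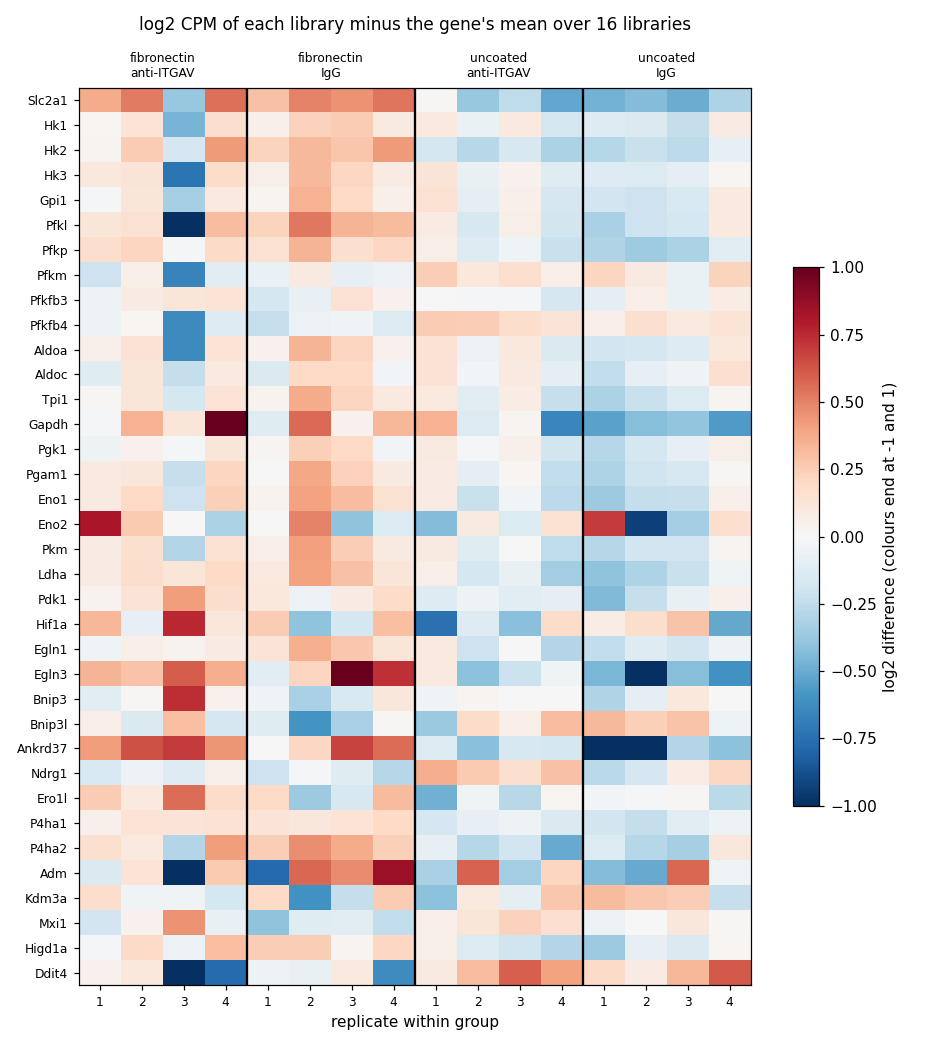
Log2 CPM of each library minus the gene's mean over the 16 libraries, for the 36 symbols (rows, without the second Aldoa row) and the 4 groups of 4 libraries (columns), with colours that end at -1 and 1. Slc2a1, Ankrd37 and Egln3 are mostly red on fibronectin and blue on uncoated dishes, and replicate 3 of fibronectin with anti-ITGAV differs from its group in many rows, among them Hk3, Pfkl and Aldoa.

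The promoters of 5 genes are shown because these genes were called on fibronectin and 4 of them (Ldha, Ankrd37, P4ha1 and Pfkfb4) separated all 8 coated from all 8 uncoated libraries; the choice was made after their values were seen. Each line gives the 250 bases before the RefSeq start, on the gene's strand, on GRCm38.p6. Capitals mark ACGTG or GCGTG on either strand, the core of the element that hypoxia-inducible factors bind, which reads CACGT or CACGC from the other strand.
Slc2a1: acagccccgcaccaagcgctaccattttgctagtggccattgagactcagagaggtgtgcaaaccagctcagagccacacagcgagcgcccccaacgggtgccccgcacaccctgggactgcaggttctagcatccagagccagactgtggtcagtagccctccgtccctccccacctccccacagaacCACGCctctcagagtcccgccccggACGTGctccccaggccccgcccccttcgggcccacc
Ldha: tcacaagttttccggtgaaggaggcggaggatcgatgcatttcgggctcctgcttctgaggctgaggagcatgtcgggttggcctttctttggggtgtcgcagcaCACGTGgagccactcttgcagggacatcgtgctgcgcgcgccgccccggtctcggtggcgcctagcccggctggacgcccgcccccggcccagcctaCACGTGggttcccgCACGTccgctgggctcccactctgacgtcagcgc
Ankrd37: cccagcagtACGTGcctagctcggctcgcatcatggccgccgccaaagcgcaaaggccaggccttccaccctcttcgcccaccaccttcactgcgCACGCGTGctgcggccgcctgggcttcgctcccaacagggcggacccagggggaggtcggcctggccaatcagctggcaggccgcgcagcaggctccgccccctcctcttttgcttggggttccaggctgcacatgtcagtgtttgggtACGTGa
P4ha1: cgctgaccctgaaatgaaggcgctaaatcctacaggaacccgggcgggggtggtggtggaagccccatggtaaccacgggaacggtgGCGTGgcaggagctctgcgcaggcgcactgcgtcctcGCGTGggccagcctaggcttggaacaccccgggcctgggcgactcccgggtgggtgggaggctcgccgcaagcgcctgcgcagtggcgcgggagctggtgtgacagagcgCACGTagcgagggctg
Pfkfb4: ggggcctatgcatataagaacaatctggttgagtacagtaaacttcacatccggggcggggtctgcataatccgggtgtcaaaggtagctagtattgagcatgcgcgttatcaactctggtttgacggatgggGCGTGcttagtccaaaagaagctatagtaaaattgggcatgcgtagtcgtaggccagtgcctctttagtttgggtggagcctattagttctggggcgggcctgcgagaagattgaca
The windows lie at chr4:119108495-119108744 (plus strand) for Slc2a1, chr7:46845554-46845803 (plus) for Ldha, chr8:45999851-46000100 (minus) for Ankrd37, chr10:59323046-59323295 (plus) for P4ha1 and chr9:108991652-108991901 (plus) for Pfkfb4. Slc2a1 has 2 such matches, Ldha 5, Ankrd37 4, P4ha1 3 and Pfkfb4, which fell, 1. In Ldha, 4 of the 5 matches are the 2 strands of 2 copies of CACGTG, the letters that basic helix-loop-helix factors also bind. The RefSeq starts of Ldha and Ankrd37 lie 4329 and 5857 bases inside the deposited gene spans, so these windows fall within the genes as deposited. RefSeq windows were matched for 34 of the 36 symbols, all but Bnip3l and Ndrg1. The motif occurred in 27 of the 34 (79.4%), against 56% of 10346 windows of the genes tested and 38.6% of all 32851 windows. The 32851 windows were not limited to 1 per gene or to genes tested. The symbols were chosen as glycolysis and hypoxia genes, so this difference cannot be read as a result about fibronectin. CACGTG occurred in 4 of the 34 (11.8%), against 8.46% of the windows of the genes tested. The 7 without the motif were Hk1, Gpi1, Aldoa, Tpi1, Eno2, Pkm and Mxi1. A match is a description of these letters, not a bound site.

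The antibody comparison asked whether blocking the αV integrin altered these genes. By edgeR's test none of the 37 rows was called for anti-ITGAV against IgG on fibronectin, where 0.0129% of all genes tested were called, on uncoated dishes (0.0129%), or averaged over both coatings (0.0711%). At an unadjusted p under 0.05 the counts were 1 of 37 on fibronectin (4.65% of all genes tested), 3 on uncoated dishes (3.04%) and 3 on average (3.59%), and DESeq2 called 0 in each. On fibronectin the median log2 change of the rows was -0.09 with a median SE of 0.12, and 12 of 37 were above 0 (50% of all genes tested). It was -0.16 without fibronectin IgG replicate 1, -0.055 without fibronectin IgG replicate 2 and -0.03 without the library that stood apart. On uncoated dishes the median was 0.09, and 28 of 37 were above 0 (53.2%). It was 0.05 and 0.15 without uncoated IgG replicate 1 and 4, and 0.055 without uncoated anti-ITGAV replicate 1. The 2 comparisons share no libraries with each other, but each shares its groups with the coating comparisons.

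Slc2a1 showed no call with the antibody on either coating: its log2 change was -0.14 ± 0.16 (SE, adjusted p = 0.769) on fibronectin and 0.15 ± 0.16 (SE, adjusted p = 0.988) on uncoated dishes. Ldha differed by -0.09 ± 0.10 (SE, adjusted p = 0.767) on fibronectin and by 0.11 ± 0.10 (SE, adjusted p = 0.988) on uncoated dishes. The groups were apart in 2 genes. Egln1 read 48.8, 52.7, 51.6 and 53.1 CPM with anti-ITGAV, against 55.0, 64.2, 60.7 and 54.7 CPM with IgG, on fibronectin, every antibody library lower (log2 change -0.19 ± 0.10, SE, adjusted p = 0.721); 1.37% of all genes showed such a gap downward. Egln3 read 1.88, 1.32, 1.51 and 1.70 CPM with anti-ITGAV, against 1.28, 0.631, 1.31 and 1.15 CPM with IgG, on uncoated dishes, every antibody library higher (log2 change 0.56 ± 0.28, SE, adjusted p = 0.988); 2.24% of all genes showed such a gap upward.

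Whether fibronectin acted differently under the 2 antibodies was tested directly by the coating by antibody interaction, which was called for 0 of 37 rows and 0% of all genes tested. At an unadjusted p under 0.05, 1 of 37 rows and 3.97% of all genes passed, and DESeq2 called 0 rows and 1 gene in all. Thus the 8 rows called under IgG and the 2 under anti-ITGAV are not shown to differ. The fibronectin change was smaller or more negative under anti-ITGAV than under IgG in 28 of 37 rows, the median interaction was -0.21 on the log2 scale (-0.11 without the library that stood apart), against -0.02 over all genes tested, and 47.7% of all genes had an interaction above 0. Among single genes the interaction was -0.29 ± 0.23 (SE) for Slc2a1, -0.26 ± 0.13 for Pfkp, -0.25 ± 0.14 for Egln1, -0.72 ± 0.38 for Egln3 and 0.56 ± 0.32 for Hif1a, each with an adjusted p of 0.646.

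Across the 37 rows the interaction was correlated with transcript GC content. The 37 rows had a median transcript GC content of 51.9% (41.3% to 61.2%), against 49.2% over the genes tested. Across them GC content and the interaction correlated at a Pearson's r of -0.67, a description over 37 genes that share the 16 libraries. The mean rank correlation of a library's deviations with GC content was -0.15 ± 0.42 on fibronectin with anti-ITGAV, 0.10 ± 0.43 on fibronectin with IgG, 0.22 ± 0.32 on uncoated dishes with anti-ITGAV and -0.06 ± 0.31 on uncoated dishes with IgG (SD, n = 4 each). On fibronectin with anti-ITGAV the libraries were at -0.19, 0.27, -0.7 and 0.04, the -0.7 being the library that stood apart. With a GC offset for each library the median interaction of the rows was -0.06 and the correlation -0.26. The same offset called 18 rows higher and 2 lower on fibronectin under IgG (10.1% of all genes tested called), 11 higher and 3 lower under anti-ITGAV (11.6%), and 0 for the antibody on either coating or the interaction. Of the 8 rows called under IgG, 7 were called with the offset, all but Egln1 (adjusted p = 0.0694). Slc2a1 then changed by 0.83 ± 0.10 under IgG and 0.70 ± 0.10 under anti-ITGAV (log2, SE; adjusted p = 1.63e-05 and 8.93e-05), and Hk2 by 0.50 ± 0.08 and 0.45 ± 0.08 (adjusted p = 0.000345 and 0.000705).

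Beyond the 36 symbols, 81 other genes of glucose, pyruvate, glycogen and hypoxia pathways were followed, 68 of which passed the filter. Under IgG 6 rose and 2 fell on fibronectin, under anti-ITGAV 6 rose and 5 fell, and on average 10 rose and 8 fell, against the shares of all genes given above; none was called for the antibody or the interaction. Their median averaged log2 change was 0.03, against 0.004 over all genes tested. The 20 tested hypoxia-inducible targets outside the 36 symbols counted 6 higher and 0 lower on average. Of all genes tested, 6.58% were higher and 5.26% lower there.

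Among these other pathway genes, the lowest adjusted p under IgG belonged to Hmox1, the heme-degrading enzyme. It averaged 1820 ± 137 CPM on fibronectin, against 1204 ± 119 CPM on uncoated dishes (SD, n = 4 each, log2 change 0.60 ± 0.10, SE, adjusted p = 0.00324). Ak4, a mitochondrial adenylate kinase, followed with 4.16 ± 0.642 CPM on fibronectin, against 1.76 ± 0.254 CPM on uncoated dishes (log2 change 1.23 ± 0.23, SE, adjusted p = 0.0061). Epas1, which encodes the second hypoxia-inducible factor subunit, averaged 40.8 ± 1.57 CPM on fibronectin, against 26.1 ± 3.89 CPM on uncoated dishes (log2 change 0.64 ± 0.13, SE, adjusted p = 0.0079). So Epas1 was called where Hif1a was not; the difference between them was not tested. Plin2, a lipid droplet coat protein, also rose (log2 change 0.41 ± 0.09, SE, adjusted p = 0.0142), as did Tigar, a phosphatase that slows glycolysis (log2 change 0.60 ± 0.14, SE, adjusted p = 0.0201). Pdk2, another pyruvate dehydrogenase kinase, fell (log2 change -0.63 ± 0.14, SE, adjusted p = 0.0158).

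Under anti-ITGAV Slc16a1, a lactate and pyruvate carrier, averaged 19.9 ± 3.29 CPM on fibronectin, against 13.0 ± 0.987 CPM on uncoated dishes (SD, n = 4 each; log2 change 0.62 ± 0.13, SE, adjusted p = 0.0077). Bhlhe40, a transcriptional repressor, averaged 19.5 ± 1.21 CPM on fibronectin, against 13.2 ± 1.35 CPM on uncoated dishes (log2 change 0.56 ± 0.11, SE, adjusted p = 0.00783). Pdk2 fell here too, with 11.2 ± 1.26 CPM on fibronectin, against 17.9 ± 2.41 CPM on uncoated dishes (log2 change -0.68 ± 0.14, SE, adjusted p = 0.00832). Glycogen phosphorylase Pygl (log2 change -0.37 ± 0.08, SE, adjusted p = 0.0127), the mitochondrial gluconeogenesis enzyme Pck2 (log2 change -0.62 ± 0.15, SE, adjusted p = 0.0186) and the lipoprotein lipase inhibitor Angptl4 (log2 change -1.13 ± 0.25, SE, adjusted p = 0.0137) fell as well.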

How the data were processed

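PolyA-selected macrophage RNA was sequenced as paired ends in 16 libraries, per the labels' protocols. The authors deposited whole-number counts per gene and FPKM for the same 54532 genes. The submitters' processing notes name the tools featureCounts, HISAT2 and StringTie, without roles or versions, and the genome as GRCm38.p6 and mm10. No source used here states whether counting used strand or how it treated multiply matching reads. The authors' FPKM were used for levels and isozyme shares.

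The deposited counts went unchanged into edgeR 4.0.16 (R 4.3.3), with limma 3.58.1 for the FPKM alternatives. Genes were kept by filterByExpr (minimum count 10), which left 15469. TMM factors and 1 mean per group were fitted to all 16 libraries by the robust quasi-likelihood method, with Benjamini-Hochberg adjustment over all genes tested. CPM use TMM-scaled totals, and log2 changes and SE come from the fit. Replicate pairs differed by a chi-square of 5.11 to 181.6 per degree of freedom, more than sampling noise. The labels number replicates 1 to 4 in each group, but same-numbered libraries did not deviate together (correlations -0.301 to 0.277, above 0.1 in 4 of 24 pairs), so they were not treated as pairs.

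The genes, their role lists, the marker lists and the tests were chosen with earlier results of these data known. Named in any case were rows called in any comparison, the row with the highest FPKM of each role, and Slc2a1, Hif1a, Ldha, Hk2, Pfkp, Pfkfb3 and Pdk1; other pathway genes were named up to 6 per comparison by the lowest adjusted p. Alternatives were DESeq2 1.42.0, other scaling factors and filters, limma on log2(FPKM + 1) and log2(FPKM + 0.1), a GC offset (a smooth trend of log2 CPM on the GC content of each gene's longest transcript), the replicate block, the libraries of a comparison alone, and leaving out each library. The GC offset without the library that stood apart was added after the data were seen. The analysis was also run on simulated counts without GC trends, and the outcome is not given here. Figures were drawn with matplotlib 3.10.9 in Python 3.11.15. Promoters are RefSeq's, on GRCm38.p6.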

Additional observations from a re-analysis of the deposited data

Results flagged for a closer look

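Over the 37 rows and 4 groups, 148 groups of 4 libraries were examined for a library far from the other 3, and 9 were found; chance gives about 1 in 20 groups.

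Of these, 3 lay in replicate 3 of fibronectin with anti-ITGAV, the library that stood apart. Hk3 was lowest there at 307.9 CPM, against 552.2 to 581.7 CPM in the other 3 libraries of its group. Aldoa was lowest at 844.7 CPM, against 1364 to 1452 CPM. Bnip3 was highest at 34.5 CPM, against 19.3 to 21.3 CPM. That library's 3.67% mitochondrial counts and its GC correlation of -0.7 stand beside these values; their part was not tested.

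Among the uncoated IgG libraries, replicate 4 was lowest for Ero1l at 45.03 CPM, against 53.2 to 54.7 CPM, and for Kdm3a at 44.06 CPM, against 61.3 to 64.5 CPM. Among the uncoated anti-ITGAV libraries, replicate 4 was lowest for Pfkfb3 at 31.53 CPM, against 35.2 to 35.4 CPM. Replicate 2 of the same group was lowest for Ankrd37 at 3.142 CPM, against 3.70 to 3.81 CPM.

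On fibronectin, replicate 2 with IgG was highest for Pfkm at 21.8 CPM, against 19.3 to 19.7 CPM. Replicate 1 with anti-ITGAV was lowest for P4ha1 at 116.4 CPM, against 122.8 to 123.8 CPM, and it was still above every uncoated library.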

How the results depend on the processing

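Of 405 alternative values of the counts, medians and shares, 39 moved by over 1.5 times (counts) or by more than the SD between libraries (medians and shares). No called gene changed sign, but the median for the antibody averaged over both coatings, -0.008, lay on either side of 0 (-0.04 to 0.019 with a library left out, 0.012 with the GC offset). Genes called on fibronectin under IgG were 8 of 37 (586 over all genes). The GC offset called 20 (1567 over all genes), or 20 with the replicate block (1440) and 23 without the library that stood apart (2084). Under anti-ITGAV 2 of 37 were called (876 over all genes). DESeq2 called 8, 5 higher and 3 lower (1500 over all genes), and a filter of 1 CPM in 4 libraries 5 (1001). On log2(FPKM + 1) limma called 5 (956), and on log2(FPKM + 0.1) 4 (944). The libraries compared alone gave 1 (251), and the replicate block 1 (600). The GC offset called 14 (1791), or 11 with the replicate block (1667) and 14 without the library that stood apart (1758). On average 15 of 37 were called (1831 over all genes). The GC offset called 28 there (3268 over all genes, 21.1%), or 27 with the replicate block (3077) and 28 without that library (3442). The replicate block called 6 under IgG (360 over all genes) and 11 on average (1519). It ended the calls of Egln1 and P4ha1 under IgG (adjusted p 0.0875 and 0.0611) and of Slc2a1 under anti-ITGAV (0.0775). On average it ended those of Gapdh, Eno1, Higd1a and Ddit4 (0.0577, 0.0541, 0.0536 and 0.0722). The median interaction of -0.205 became -0.058 with the GC offset, -0.062 with the replicate block as well, and -0.071 without that library; without that library alone it was -0.113. As shares of counts Hk3 held 71.72%, Pfkl 46.4% and Aldoa 97.37% of their families, since these are not per length. Otherwise the cause was not tested.

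With each library left out in turn, the counts ranged from 4 to 16 under IgG, 0 to 7 under anti-ITGAV and 10 to 22 on average, and stayed at 0 for the antibody and the interaction; the typical ratio of highest to lowest library was 1.624 without replicate 3 of fibronectin with anti-ITGAV. Under IgG the count was 4 without uncoated IgG replicate 1, 2 or 3 or fibronectin IgG replicate 3, 5 without fibronectin IgG replicate 4, and 16 without the library that stood apart. Under anti-ITGAV it was 0 without uncoated anti-ITGAV replicate 2 or 3, 1 without uncoated IgG replicate 1, 2 or 3, uncoated anti-ITGAV replicate 4, fibronectin IgG replicate 3 or fibronectin anti-ITGAV replicate 1 or 4, 4 (1 higher, 3 lower) without fibronectin anti-ITGAV replicate 2, and 7 (6 higher, 1 lower) without the library that stood apart. Of 25 calls of single genes, DESeq2 kept 25, the replicate block 18 and upper-quartile factors 18. Egln1 and P4ha1 under IgG missed the threshold with upper-quartile factors and without a low-count filter (adjusted p 0.0734 to 0.157). Over all genes, calls under IgG numbered 586, against 984 by DESeq2, 360 with the replicate block and 1567 with the GC offset. Under anti-ITGAV they were 876, against 1500 by DESeq2, 251 in the libraries compared alone and 1791 with the GC offset, and on average 1831, against 3268. With a library left out these calls ranged from 253 to 1325 under IgG, 428 to 1037 under anti-ITGAV and 1325 to 2468 on average. For the antibody they were 2 on uncoated dishes and 2 on fibronectin, against 17 and 16 by DESeq2. The rows' median SE (log2) was 0.122 between single groups, 0.086 in the averaged comparisons and 0.173 for the interaction. A call took a change well above its SE, so smaller differences can go unseen. The lowest genes (Adm, Eno2, Egln3 and the second Aldoa row) rest on few counts.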

Other observations

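Averaged over both antibodies, 5 of the 10 tested enzyme genes at the borders of glycolysis outside the 36 symbols were called on fibronectin. Of all genes tested, 11.8% were called in this comparison, 6.58% higher and 5.26% lower. Tigar (log2 change 0.53 ± 0.10, SE, adjusted p = 0.00159) and the phosphatase gene Minpp1 (0.30 ± 0.07, adjusted p = 0.00857) rose. Ldhb, the heart form of lactate dehydrogenase (-0.49 ± 0.14, adjusted p = 0.0296), the muscle mutase Pgam2 (-0.56 ± 0.17, adjusted p = 0.0418) and the muscle enolase Eno3 (-0.43 ± 0.14, adjusted p = 0.0483) fell. Ldhb was low, at 5.04 and 4.70 CPM on fibronectin with anti-ITGAV and with IgG, against 7.36 and 6.35 CPM on uncoated dishes with anti-ITGAV and with IgG. Of the 9 tested genes of pyruvate entry into mitochondria, 1 fell, Pdk2 (-0.66 ± 0.10, adjusted p = 3e-04), and 0 rose.

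Txnip, which brakes glucose uptake and follows intracellular glucose, fell on average (-0.23 ± 0.06, adjusted p = 0.00979). The glycogen genes Pygl (-0.30 ± 0.06, adjusted p = 0.00223) and Gyg (-0.27 ± 0.06, adjusted p = 0.00339) fell too, and the other 4 glycogen genes tested were not called. With the GC offset, the mitophagy receptor gene Bnip3l also fell on fibronectin, by 0.35 under IgG (adjusted p = 0.0023) and 0.29 under anti-ITGAV (adjusted p = 0.00767); without the offset it was called in neither.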
